A study of Mus musculus with 8 samples.

Results

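The miRNAs described here are 35 mature mouse miRNAs known for their restriction to tissues other than fibroblasts, and they were followed in 3T3 cells, an immortalised mouse fibroblast line. They were picked by name for a known site of expression, with no measured value in the rule. The choice was made with earlier results of these data known. The members make up 35 of the 1966 mature miRNA names counted. There are 7 muscle miRNAs, 1 neuronal, 1 of the liver, 8 of blood cells, 6 of epithelia and 12 of pluripotent cells. The 8 small RNA libraries came from total RNA of NIH3T3 cells 48 h after transfection with 1 of 4 plasmids that express a long RNA hairpin, with 2 libraries per plasmid from separately transfected wells. CAG-EGFP-MosIR and CAG-EGFP-Lin28IR express Mos or Lin28 hairpins from the CAG promoter together with an EGFP reporter, and U6-MosIR and U6-Lin28aIR express a hairpin from U6, a promoter of RNA polymerase III. All 8 libraries therefore come from transfected cells of 1 cell line, and untreated 3T3 cells are not analysed here. The CAG-EGFP and U6 plasmids differ in more than the promoter. By the paper, the CAG-EGFP-Lin28IR hairpin derives from Lin28a/b, the U6 hairpin is named for Lin28a, and the CAG-EGFP plasmids have the longer dsRNA. What the promoter arms show therefore cannot be told apart from the reporter and the hairpin structure and sequence. Wells are the replicates, and p-values measure the spread between wells. In bulk RNA, few cells with an miRNA and a low level in every cell cannot be told apart.

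An miRNA is cut from a hairpin precursor by Drosha and Dicer, and 1 strand of the resulting duplex is loaded on an Argonaute protein. Bases 2 to 8 of the loaded strand, the seed, pair with target mRNAs, so miRNAs of 1 seed form a family with shared targets. Many miRNAs are made in nearly all cells, whereas a smaller number mark a lineage: miR-1, miR-133 and miR-206 mark muscle, miR-124 neurons, miR-122 hepatocytes, miR-142, miR-223 and miR-451 blood cells, the miR-200 family epithelia, and the miR-290 and miR-302 clusters pluripotent cells. In mesenchymal cells the miR-200 family is typically silent, and ZEB1 and ZEB2, repressors of epithelial genes, are among its targets.

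Of the 35 members, 28 had a mature sequence in RefSeq (GRCm38.p6), with the coordinates of the deposited table in all 28. The 28 sequences are 20 to 24 nt long and hold 20 distinct seeds. The 5 miR-200 members of the epithelial group are shown because they fall into 2 seed families that differ at 1 seed base; the other epithelial member, mmu-miR-205-5p, has the seed CCUUCAU. The capitals in each sequence mark the seed.
mmu-miR-200b-3p: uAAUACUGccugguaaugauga
mmu-miR-200c-3p: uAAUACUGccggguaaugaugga
mmu-miR-429-3p: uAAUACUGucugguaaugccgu
mmu-miR-200a-3p: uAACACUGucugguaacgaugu
mmu-miR-141-3p: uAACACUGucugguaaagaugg
With positions counted from 1 at the 5′ end and the first-named miRNA as the reference, mmu-miR-200b-3p and mmu-miR-200c-3p differ over 22 bases by U11G and A22G only, and mmu-miR-200a-3p and mmu-miR-141-3p by C17A and U22G. The seed base that separates the families is C4U of mmu-miR-200a-3p against mmu-miR-200b-3p.

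The muscle member with the most counts, mmu-miR-206-3p, and the paired cardiac members, which share 1 seed and have no count, are shown for comparison of a detected with an undetected muscle seed. A seed that differs from the undetected 1 at its last base only, UAAGACU against UAAGACG, was detected: mmu-miR-499-5p has it, with 14 counts.
mmu-miR-206-3p: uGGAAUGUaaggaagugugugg
mmu-miR-208a-3p: aUAAGACGagcaaaaagcuugu
mmu-miR-208b-3p: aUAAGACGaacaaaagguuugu
Among the pluripotent members with a sequence, 5 share the seed AAGUGCU and are shown. mmu-miR-302a-3p had no sequence here, so its seed was not compared.
mmu-miR-291a-3p: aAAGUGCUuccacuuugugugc
mmu-miR-294-3p: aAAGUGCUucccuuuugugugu
mmu-miR-295-3p: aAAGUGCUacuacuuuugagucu
mmu-miR-302b-3p: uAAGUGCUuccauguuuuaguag
mmu-miR-302d-3p: uAAGUGCUuccauguuugagugu
mmu-miR-367-3p, which lies beside the miR-302 members, has another seed that it shares with abundant miRNAs of these cells.
mmu-miR-367-3p: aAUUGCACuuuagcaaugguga

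The members were nearly absent from the miRNA pool. Together they had 683 counts of the 19369835 miRNA counts in the 8 libraries, which is 0.00353%. Their summed level was 5.89 ± 1.27 RPM (SD, n = 8 libraries), where RPM is the count per 1000000 perfectly mapped reads. A single miRNA, mmu-miR-21a-5p, the most counted of all names, stood at 48266 ± 14575 RPM (n = 8), 8198 times the summed level of the members. The libraries held 12898619 to 16228597 perfectly mapped reads and 1733203 to 3341065 miRNA counts each. A count of 0 therefore allows up to 0.185 to 0.233 RPM in a library and up to 0.0256 RPM over the 8 libraries pooled (3 counts). The limits and the Poisson intervals given below cover counting error only.

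The summed level did not stand apart in any plasmid. The CAG-EGFP-MosIR libraries had 5.92 and 6.59 RPM, against 4.68 and 7.38 RPM with U6-MosIR, 6.05 and 3.39 RPM with CAG-EGFP-Lin28IR, and 6.67 and 6.42 RPM with U6-Lin28aIR. The lowest and the highest library thus belonged to different plasmids, and the duplicates of U6-MosIR spanned most of the range. The mean was 5.49 ± 1.43 RPM over the CAG-EGFP libraries and 6.29 ± 1.14 RPM over the U6 libraries (SD, n = 4 each), a difference within the spread between libraries. All miRNAs together stood at 135325 RPM in the CAG-EGFP and 195722 RPM in the U6 libraries. Per 10000 miRNA counts the members had 0.401 ± 0.0639 in the CAG-EGFP and 0.323 ± 0.0643 in the U6 libraries (SD, n = 4 each), so the direction turned with the denominator, and the ranges overlapped (0.312 to 0.448 and 0.251 to 0.394). The number of members with a count ranged from 12 to 17 per library.

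Of the 35 members, 14 had no count in any library (40%), against 947 of the 1966 names (48.2%), 9 had 1 to 9 counts and 6 had 10 to 39. The other 6 had 40 counts or more (17.1%, against 20% of all names): mmu-miR-486a-5p, mmu-miR-200b-3p, mmu-miR-124-3p, mmu-miR-206-3p, mmu-miR-200c-3p and mmu-miR-122-5p. The least counted of these 6 had 49 counts, and the next member, mmu-miR-1a-3p, had 34. The 6 held 74.4% of all member counts. A mean of 1 RPM was reached by 1 member of 35 (2.86%), mmu-miR-486a-5p, against 312 of 1966 names (15.9%). The median total was 5 counts for the members and 1 for all names, so it was the share of names at 1 RPM or more that was lower among the members, not the typical count. With up to 2 mismatches allowed they had 688 counts, so 99.3% were perfect matches (99% over all names), and the 14 members without a count stayed at 0.

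**Figure D1:**
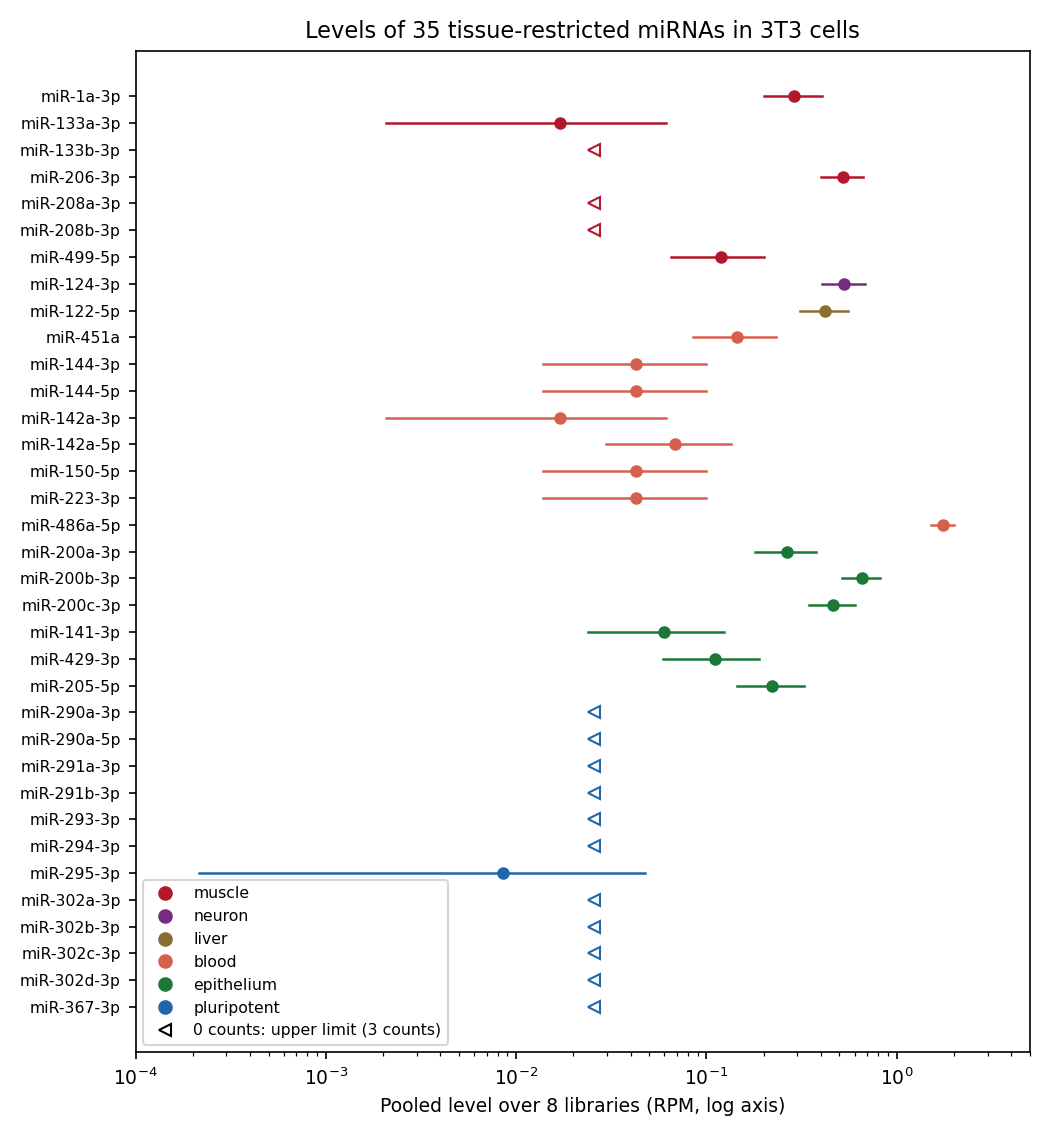
Level of each of the 35 members, pooled over 8 libraries, in RPM on a log axis, coloured by tissue, with 95% exact Poisson intervals (counting error only); open triangles mark the upper limit of 0.0256 RPM for members without a count. Only miR-486a-5p lies above 1 RPM, and 11 of the 12 pluripotent members have no count.

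Blood cell members had the highest summed level, 2.19 ± 0.756 RPM (SD, n = 8), and all 8 had at least 1 count. Most of it came from mmu-miR-486a-5p, an erythroid and muscle miRNA, with 205 counts and a pooled level of 1.75 RPM (95% interval 1.52–2.01). The blood group had 252 counts against 208 for the epithelial group, so its first place rested on mmu-miR-486a-5p. That member alone gave 30% of all member counts and ranked 281 among the 1966 names. The RPM values were 1.76 and 2.17 for CAG-EGFP-MosIR, 1.48 and 1.7 for U6-MosIR, 1.71 and 1 for CAG-EGFP-Lin28IR, and 3.02 and 1.39 for U6-Lin28aIR. It was present in every library, with the highest and one of the lower values in the duplicates of 1 plasmid. The variance between libraries was 2.91 times that of counting alone, as the chi-square of the counts per degree of freedom.

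mmu-miR-486a-5p lies at chromosome 8, 23142587–23142608 (GRCm38), in an intron of Ank1, the gene of the erythrocyte membrane protein ankyrin 1 (GENCODE M21). The opposite strand of the same stretch encodes another hairpin, and its mmu-miR-486b-5p had 209 counts. Both names had the same count in 5 of the 8 libraries and differed by at most 2 counts in the others. The reads of the 2 names cannot be told apart here, and they were not taken as separate measurements.

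The remaining blood members were at the limit of detection. mmu-miR-451a, an erythroid miRNA that Argonaute 2 rather than Dicer matures, had 17 counts and at most 4 in a library. mmu-miR-142a-5p, of the pan-haematopoietic miR-142 hairpin, had 8 counts and its other arm mmu-miR-142a-3p had 2. The myeloid mmu-miR-223-3p, the lymphocyte mmu-miR-150-5p and both arms of the erythroid mmu-miR-144, mmu-miR-144-3p and mmu-miR-144-5p, had 5 counts each, in 2 to 4 libraries.

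Epithelial members came next, at 1.78 ± 0.619 RPM (SD, n = 8), and all 6 had a count. The family with the seed AAUACUG (mmu-miR-200b-3p, mmu-miR-200c-3p and mmu-miR-429-3p) had 144 counts, and the family with AACACUG (mmu-miR-200a-3p and mmu-miR-141-3p) had 38. mmu-miR-200b-3p had 77 counts, 0.657 RPM pooled (0.518–0.821). The RPM values were 0.423 and 0.747 for CAG-EGFP-MosIR, 0.431 and 0.852 for U6-MosIR, 0.641 and 0.439 for CAG-EGFP-Lin28IR, and 0.93 and 0.861 for U6-Lin28aIR. The libraries lay between 0.423 and 0.93 RPM, and the variance between them was that of counting (chi-square per degree of freedom of 1).

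mmu-miR-200c-3p had 54 counts, 0.461 RPM pooled (0.346–0.601). The RPM values were 1.06 and 0.543 for CAG-EGFP-MosIR, 0.431 and 0.355 for U6-MosIR, 0.356 and 0.0628 for CAG-EGFP-Lin28IR, and 0.233 and 0.662 for U6-Lin28aIR. The first CAG-EGFP-MosIR library was the highest, and the second CAG-EGFP-Lin28IR library rested on 1 read. The variance was 2.88 times that of counting. mmu-miR-200b-3p and mmu-miR-200c-3p, nearly the same in sequence, come from different chromosomes.

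mmu-miR-200b-3p, mmu-miR-200a-3p and mmu-miR-429-3p lie close together on chromosome 4, in introns of Ttll10, a tubulin glycylase family gene, on its strand. Their totals were unequal, at 77, 31 and 13 counts. mmu-miR-200a-3p was absent from 3 libraries and reached 12 counts in the first CAG-EGFP-MosIR library. mmu-miR-200c-3p and mmu-miR-141-3p lie together on chromosome 6, with 54 and 7 counts. The epidermal mmu-miR-205-5p, on chromosome 1, was low but present in every library, with 26 counts and between 1 and 6 per library.

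Muscle members reached 0.962 ± 0.497 RPM (SD, n = 8), with 4 of 7 detected. mmu-miR-206-3p, specific to skeletal muscle, had 61 counts, 0.52 RPM pooled (0.398–0.668). The RPM values were 0.211 and 0.679 for CAG-EGFP-MosIR, 0.246 and 1.28 for U6-MosIR, 0.356 and 0.188 for CAG-EGFP-Lin28IR, and 1.01 and 0.331 for U6-Lin28aIR. High and low libraries occurred as duplicates of 1 plasmid, and the variance between libraries, 4.6 times that of counting, was the highest among the 6 most counted members. mmu-miR-206-3p and mmu-miR-133b-3p lie on chromosome 1 (20679055–20679076 and 20682834–20682855, GRCm38, plus strand), both in exons of the long non-coding RNA Gm28653. mmu-miR-133b-3p had no count, although it shares this host with mmu-miR-206-3p.

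mmu-miR-1a-3p, common to skeletal and heart muscle, had 34 counts and was present in 7 of 8 libraries, with at most 8 counts. It is encoded at 2 loci, each listed with the same count. mmu-miR-133a-3p, which is transcribed with mmu-miR-1a-3p, had 2 counts, both in the second U6-Lin28aIR library. mmu-miR-499-5p, from an intron of the myosin gene Myh7b, had 14 counts. mmu-miR-208a-3p and mmu-miR-208b-3p, from introns of the cardiac myosin genes Myh6 and Myh7, had none.

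The neuronal mmu-miR-124-3p had 62 counts, 0.529 RPM pooled (0.406–0.678). The RPM values were 0.141 and 0.204 for CAG-EGFP-MosIR, 0.431 and 0.994 for U6-MosIR, 0.783 and 0.502 for CAG-EGFP-Lin28IR, and 0.31 and 0.861 for U6-Lin28aIR. Both CAG-EGFP-MosIR libraries were below all others, and the other 3 plasmids overlapped. The variance was 2.73 times that of counting. It is encoded at 3 loci with 62 counts each, so which of them the reads came from is unknown.

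The hepatocyte mmu-miR-122-5p had 49 counts, 0.418 RPM pooled (0.309–0.553). The RPM values were 0.564 and 0.407 for CAG-EGFP-MosIR, 0.493 and 0.426 for U6-MosIR, 0.854 and 0.251 for CAG-EGFP-Lin28IR, and 0.155 and 0.199 for U6-Lin28aIR. Both U6-Lin28aIR libraries were the lowest, and the second CAG-EGFP-Lin28IR library was close to them. The variance was 1.75 times that of counting.

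**Figure D2:**
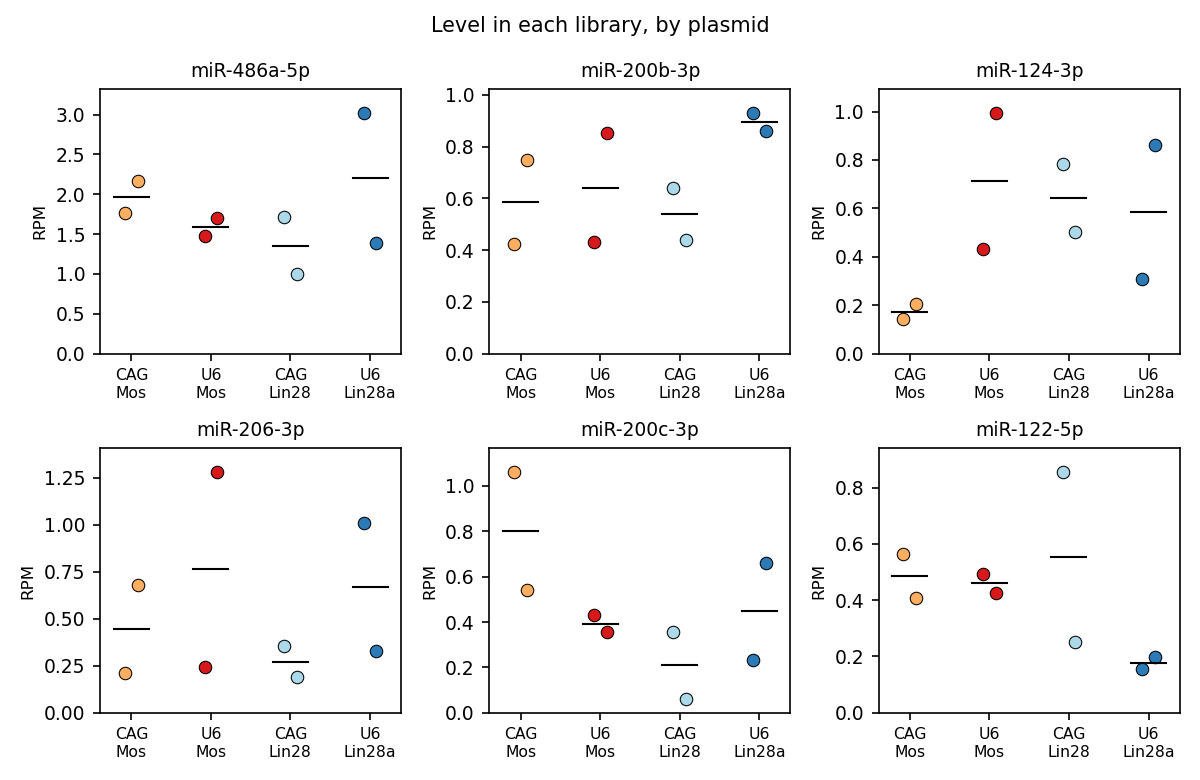
Level in RPM of the 6 members with 40 counts or more in each library, by plasmid; points are libraries (2 per plasmid) and lines the mean of the 2. Duplicates of 1 plasmid often lie as far apart as different plasmids, as for miR-206-3p with 0.246 and 1.28 RPM in U6-MosIR.

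The order of the 6 most counted members could be settled only at its top. The interval of mmu-miR-486a-5p lay above those of all others. mmu-miR-200b-3p, mmu-miR-124-3p, mmu-miR-206-3p, mmu-miR-200c-3p and mmu-miR-122-5p had intervals that overlapped from each to the next, and their levels per library overlapped too.

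Pluripotent members gave the lowest values, with 1 count among 12 miRNAs. The count was of mmu-miR-295-3p in the second U6-MosIR library. The other 11, mmu-miR-290a-3p, mmu-miR-290a-5p, mmu-miR-291a-3p, mmu-miR-291b-3p, mmu-miR-293-3p, mmu-miR-294-3p, mmu-miR-302a-3p, mmu-miR-302b-3p, mmu-miR-302c-3p, mmu-miR-302d-3p and mmu-miR-367-3p, had 0 counts, which allows up to 0.0256 RPM for each over the pooled libraries. These miRNAs come from a cluster on chromosome 7 (miR-290 to miR-295), most abundant in embryonic stem cells of the mouse, and a cluster on chromosome 3 (miR-302 and miR-367), inside an intron of Larp7 on the strand opposite to that gene. The hairpins of the Lin28 plasmids carry sequence of Lin28a, a gene for an RNA-binding protein of pluripotent cells, and that of CAG-EGFP-Lin28IR also of Lin28b. The pluripotent members had 0 counts in the libraries of CAG-EGFP-Lin28IR and U6-Lin28aIR. With 1 count in the Mos libraries, the hairpins cannot be compared for these members. Their low level was shared by all 4 plasmids.

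The pluripotent seeds themselves were not all foreign to these cells. The seed of mmu-miR-367-3p, AUUGCAC, is also that of 5 other names, which together stood at 3640 ± 724 RPM (SD, n = 8). The most abundant of them were mmu-miR-92a-3p, of the broadly expressed miR-17-92 cluster, at 2428 ± 452 RPM and mmu-miR-25-3p, of the related miR-106b-25 cluster, at 1185 ± 288 RPM.
mmu-miR-92a-3p: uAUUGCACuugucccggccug
mmu-miR-25-3p: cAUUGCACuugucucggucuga
The seed of mmu-miR-291b-3p, AAGUGCA, is shared with mmu-miR-350-5p, which stood at 10.4 ± 2.41 RPM. For the seed AAGUGCU no name other than the 5 members was found among the 1675 names with a sequence, which do not include mmu-miR-302a-3p. The same 7 letters occur 1 base further from the 5′ end, at bases 3 to 9, in 8 other names, 6 of them with counts, which summed to 2421 ± 595 RPM (SD, n = 8). The most abundant 3 are shown with these bases in capitals.
mmu-miR-93-5p: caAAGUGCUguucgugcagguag
mmu-miR-20a-5p: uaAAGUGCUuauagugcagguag
mmu-miR-17-5p: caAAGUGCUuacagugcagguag
They stood at 1065 ± 230, 624 ± 162 and 489 ± 146 RPM. A match of these letters is a description of the sequences, and no target was measured here. Among the 1675 names with a sequence, no name outside the members that had a count shared a seed with the muscle, blood or epithelial members that have one.

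Of the partner arms of the 6 most counted members, 4 had no count: the 5p arms of mmu-miR-200b, mmu-miR-200c and mmu-miR-206 and the 3p arm of mmu-miR-122. mmu-miR-124-5p had 5 counts and mmu-miR-486a-3p had 10. Over all 40 companion names, other arms and near relatives of the members, 32 had no count. The companion with the most counts was mmu-miR-486b-5p, and the next was mmu-miR-1b-5p with 22. mmu-miR-292b-5p, a companion from the strand opposite to the miR-290 cluster, had 7 counts, all in the U6-Lin28aIR libraries.

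A pair of other lists place these levels in the profile of the cells. All 10 miRNAs of a fibroblast list had at least 10 RPM and together took 39.5% of the miRNA counts, led by mmu-miR-21a-5p, mmu-miR-31-5p (8525 ± 2108 RPM), mmu-miR-29a-3p (3604 ± 858 RPM) and mmu-miR-143-3p (1489 ± 369 RPM). This list was drawn up with earlier results of these data known, and whether its miRNAs are particular to fibroblasts was not tested. Among 18 other miRNAs often described as restricted to the nervous system, gut, pancreas, skin or endothelium, 6 had at least 10 RPM and 5 had no count. The 6 were the neural mmu-miR-9-5p at 159 ± 46.5 RPM, mmu-miR-9-3p at 52.3 ± 14.7 RPM and mmu-miR-128-3p at 49.7 ± 9.18 RPM, the epidermal mmu-miR-203-3p at 40.5 ± 12.5 RPM, and the gut and liver miRNAs mmu-miR-194-5p at 36.6 ± 10.5 RPM and mmu-miR-192-5p at 20.6 ± 4.81 RPM (SD, n = 8). The lowest library of the neural mmu-miR-9-5p was at 105 RPM, above the highest library of mmu-miR-124-3p at 0.994 RPM. A mean of at least 1 RPM was thus reached by 6 of these 18 miRNAs (33.3%) and by 1 of the 35 members (2.86%), in lists that were both drawn up with earlier results of these data known.

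**Figure D3:**
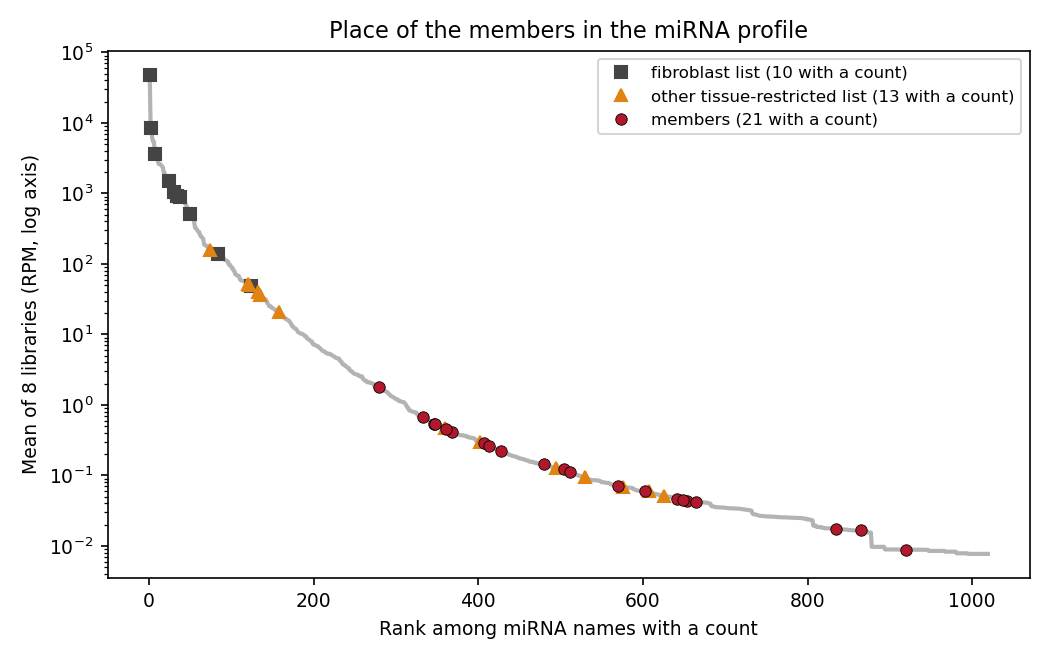
Mean level over 8 libraries in RPM, on a log axis, of every miRNA name with a count, against its rank (grey line), with the members (circles), the fibroblast list (squares) and 18 other tissue-restricted miRNAs (triangles). The highest member stands at 1.78 RPM, whereas 6 of the triangles and all 10 squares lie above 10 RPM.

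The plasmids were compared to ask whether the members differed between the promoter arms or between the hairpins. The Lin28 hairpin is not the same in both promoter arms, so the comparison of Lin28 with Mos and the interaction mix hairpin sequences. The filter before the test asked for enough counts, relative to depth, in at least 2 libraries. It kept only 5 members: mmu-miR-122-5p, mmu-miR-124-3p, mmu-miR-200b-3p, mmu-miR-206-3p and mmu-miR-486a-5p. mmu-miR-200c-3p, with 54 counts, did not pass, whereas mmu-miR-122-5p passed with 49. mmu-miR-122-5p passed through CAG-EGFP libraries alone and mmu-miR-206-3p through U6 libraries alone, so the filter leaned towards the direction of their promoter differences. None of the 5 was called for U6 against CAG-EGFP by edgeR's quasi-likelihood test with Benjamini-Hochberg adjustment over 360 miRNAs (threshold 0.05), where 2 of 360 were called (0.556%). For the Lin28 against the Mos plasmids, and for the interaction of promoter and hairpin, 0 members and 0 of 360 miRNAs were called (0%). At an unadjusted p under 0.05 the members gave 0, 0 and 1 and all miRNAs 32, 10 and 13 in the 3 comparisons, and DESeq2 called 0 members in each. Among the 21 members with a count, 0 had RPM values without overlap between the U6 and CAG-EGFP libraries, against 124 of the 1019 names with a count (12.2%). Between the Lin28 and Mos libraries it was 0 of 21, against 8 of 1019 (0.785%). A name with a library at 0 in both groups overlaps by necessity, and many of the 21 members were of this kind. RPM also carries the higher level of all miRNAs in the U6 than in the CAG-EGFP libraries (195722 against 135325 RPM). These shares therefore do not show whether the members moved.

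The largest of the 5 log2 fold changes for U6 against CAG-EGFP was that of mmu-miR-122-5p, −1.30 ± 0.63 (SE; 95% interval −2.62 to 0.02; edgeR adjusted p = 0.539). In RPM its CAG-EGFP libraries ranged from 0.251 to 0.854 and its U6 libraries from 0.155 to 0.493. This member had entered the test through CAG-EGFP libraries alone. The values of the others were 0.49 ± 0.64 for mmu-miR-206-3p, 0.44 ± 0.58 for mmu-miR-124-3p, −0.08 ± 0.45 for mmu-miR-200b-3p and −0.30 ± 0.29 for mmu-miR-486a-5p (edgeR adjusted p between 0.802 and 0.986). The interval was narrowest for the most counted member, mmu-miR-486a-5p, from −0.89 to 0.29, and it held both falls and rises. These fold changes are relative to the other miRNAs, whose median was at −0.00227 with TMM scaling and at 0.50 with the deposited library sizes. With the latter, 183 of 360 miRNAs were called (50.8%) and 0 of the 5 members. mmu-miR-206-3p then stood at 0.98, mmu-miR-124-3p at 0.94, mmu-miR-200b-3p at 0.42, mmu-miR-486a-5p at 0.19 and mmu-miR-122-5p at −0.81 (edgeR adjusted p between 0.163 and 0.553). Without the second U6-Lin28aIR library, the TMM value of mmu-miR-124-3p was 0.0027, and without the first CAG-EGFP-Lin28IR library that of mmu-miR-122-5p was −0.83.

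For Lin28 against Mos the log2 fold changes lay between −0.47 (mmu-miR-122-5p) and 0.94 (mmu-miR-124-3p), with edgeR adjusted p between 0.97 and 0.988. In the interaction, the promoter difference within the Lin28 plasmids minus that within the Mos plasmids, mmu-miR-124-3p had −2.54 ± 1.14 (95% interval −4.92 to −0.16), with an unadjusted edgeR p of 0.0372 and an adjusted p of 0.994. This came from a value of 1.71 for U6 against CAG-EGFP in the Mos plasmids (−0.15 to 3.56) and −0.83 in the Lin28 plasmids (−2.30 to 0.64), from 2 and 3 counts in the CAG-EGFP-MosIR libraries and 4 to 14 in each of the others. It did not pass the adjusted threshold. mmu-miR-124-3p had entered the test through CAG-EGFP-Lin28IR and U6-MosIR libraries alone. Both plasmids are subtracted in the interaction, so the filter leaned towards a negative value, and the unadjusted p and the interval do not allow for this. The intervals are not adjusted for the number of miRNAs tested, so they are not limits of detection. With these counts and 2 wells per plasmid, changes within them, and some beyond them, may have been missed.

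**Figure D4:**
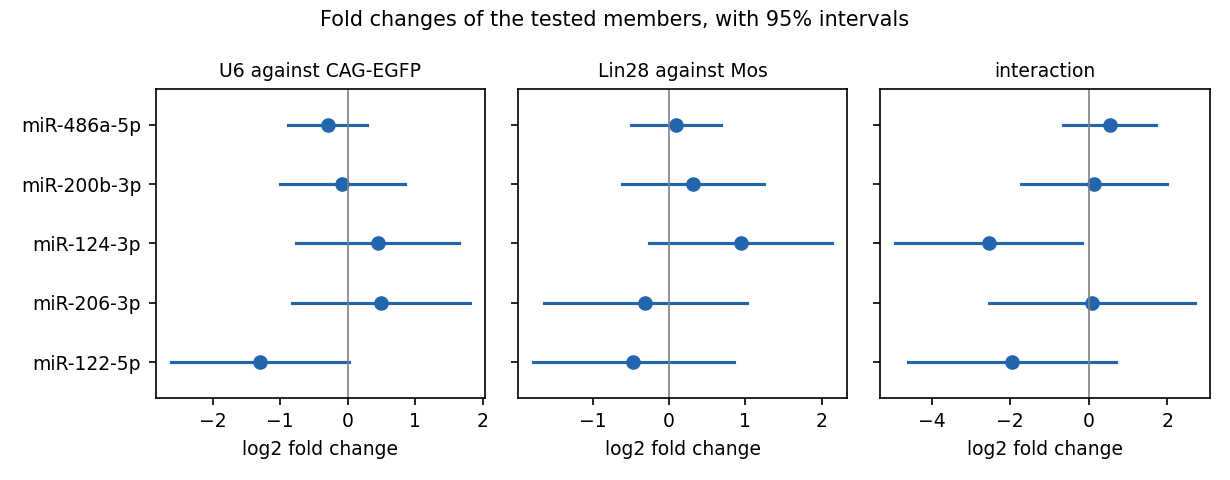
log2 fold changes of the 5 tested members from edgeR, with 95% intervals (lines), for U6 against CAG-EGFP, Lin28 against Mos, and their interaction. All intervals cross 0 except that of miR-124-3p in the interaction (−4.92 to −0.16), which did not pass the adjusted threshold. For this member the filter on counts leaned towards a negative interaction.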

How the data were processed

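The authors made the small RNA libraries with the NEXTflex kit, trimmed the adapters and mapped the reads to mm10 with the plasmid sequences added, keeping multimapping reads; the submitters' processing notes name STAR 2.5.3a. They deposited read counts, not normalized, for each mature miRNA locus (miRBase) at 0, 1 or 2 mismatches, and the mapped reads of each library. The rule that assigned reads to miRNAs, and its use of strand, were not given in any source used here. The sample labels and the study's methods differ in the plate and plasmid dose.

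From the counts without mismatches, RPM was computed over the perfectly mapped reads of a library. A name at several loci was counted once, at the locus with the highest total. Plasmids were compared by the robust quasi-likelihood test of edgeR 4.0.16 (R 4.3.3) after TMM scaling and filterByExpr, in 1 fit of 4 plasmids over 8 libraries, with Benjamini-Hochberg adjustment over 360 miRNAs. The test was checked on simulated data. Intervals of levels are exact Poisson (95%). The results were recomputed with DESeq2 1.42.0, library sizes as deposited, no filter on low counts, mismatches, summed loci, other library sizes for RPM, the replicate number as a block and leaving out each library. All 35 members are named, those with at least 40 counts with their value in every library, and up to 4 of each other list by level; mmu-miR-1b-5p, mmu-miR-292b-5p and the seed partners beyond these were named after their values were seen. The members and lists were chosen with earlier results of these data known. Sequences are from RefSeq, GRCm38.p6, without its entries on chromosome 18, and genes from GENCODE M21.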

Additional observations from a re-analysis of the deposited data

Results flagged for a closer look

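Among the U6 libraries, mmu-miR-200b-3p stood at 0.431 RPM in the first U6-MosIR library, apart from the other 3, which had 0.852, 0.93 and 0.861 RPM. The gap was above Dixon's 95% critical value for 4 samples. Of 12 groups of 4 libraries examined, 1 stood out in this way, and chance gives about 1 in 20. The low library rested on 7 counts against 12 to 13 in the others, and the 4 libraries join U6-MosIR and U6-Lin28aIR. Over all 8 libraries the variance was that of counting (chi-square per degree of freedom of 1). The first CAG-EGFP-MosIR and the second CAG-EGFP-Lin28IR library were about as low, at 0.423 and 0.439 RPM.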

How the results depend on the processing

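No member was called under any of the alternatives, where the lowest adjusted p was 0.163. Of 240 alternative values of the 15 log2 fold changes of members, 219 kept their direction and side of the threshold and 21 changed sign, 18 of them on leaving out 1 library. With the deposited library sizes in place of TMM, the U6 against CAG-EGFP fit called 183 miRNAs in place of 2, and signs changed for mmu-miR-486a-5p (0.19 for U6 against CAG-EGFP, −0.05 for Lin28 against Mos) and mmu-miR-200b-3p (0.42 for U6 against CAG-EGFP). Without a filter on low counts, 4 miRNAs were called. On leaving out each library, the calls ranged from 2 to 11 for U6 against CAG-EGFP, and from 0 to 3 for Lin28 against Mos and for the interaction. The counts were 11, 3 and 3 without the first CAG-EGFP-MosIR library, 10 for U6 against CAG-EGFP without the second, and 5 without the first U6-Lin28aIR library; the cause was not tested. The values that changed sign ranged, for mmu-miR-206-3p, from −0.23 to 0.99 for U6 against CAG-EGFP, from −0.86 to 0.43 for Lin28 against Mos and from −1.0 to 1.56 in the interaction; for mmu-miR-486a-5p, from −0.31 to 0.33 for Lin28 against Mos and from −0.25 to 1.08 in the interaction; and for mmu-miR-200b-3p, from −0.31 to 0.12 for U6 against CAG-EGFP and from −0.28 to 0.61 in the interaction. Values that kept their sign also moved for U6 against CAG-EGFP, from 0.0027 to 0.65 for mmu-miR-124-3p, from −1.58 to −0.83 for mmu-miR-122-5p and from −0.67 to −0.05 for mmu-miR-486a-5p. Members with a mean of at least 1 RPM numbered 2 with loci summed, 8 over 18–30-nt reads and 10 over 21–23-nt reads, and the summed level was then 7.25, 23.3 and 42 RPM, by the smaller denominators or the repeated loci. The share of all names at 1 RPM was not computed under these settings. The 15.9% given above holds for the main setting only and cannot be set against these numbers. Without 1 library the summed level was 5.67 to 6.24 RPM, and 20 to 21 members had a count. The share of miRNA counts, here the mean of the shares per library, was then 0.0035 to 0.00378%. With all 8 libraries this mean was 0.00362%. Replicate numbers did not pair the libraries (correlations of deviations from −0.165 to 0.16), and the replicate block gave 2, 0 and 0 calls and changed no member call. A mean of at least 10 RPM leaves no member to test. Depth limits the 14 members at 0 to at most 0.0256 RPM each.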
